A study of Mus musculus with 18 samples.

Results

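The Toll-like receptor genes of the mouse were followed in RNA from microglia of the spinal cord. Microglia are macrophages that live in the central nervous tissue from embryonic life on. The 10 genes were chosen by name (Tlr1, Tlr2, Tlr3, Tlr4, Tlr5, Tlr6, Tlr7, Tlr8, Tlr9 and Tlr13) and each matched 1 row by its Ensembl identifier, out of 39017 genes in the count table. That choice was made with earlier results of these data known, and all 10 passed the filter on low counts. The other mouse receptors of the family, Tlr11 and Tlr12, are given beside them.

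Libraries came from 18 samples of female mice whose genotype is labelled WT and which carried Tmem119-Cre and RiboTag. Tmem119 is a microglial gene that drives the Cre recombinase, and RiboTag is a Cre-dependent epitope tag on a ribosomal protein, made so that RNA on the ribosomes of the tagged cells can be pulled down. No pull-down step, age, dose or time is given in the sources used here, and all 3 groups share the 2 alleles. The groups were 6 libraries from healthy mice with the treatment labelled Control, 6 from mice with EAE (experimental autoimmune encephalomyelitis, in which immune cells attack myelin, used to model multiple sclerosis) with the treatment labelled Control, and 6 from EAE mice given metformin, an antidiabetic drug. They are called healthy, control EAE and metformin EAE libraries here, and a library is named by its number in the labels. Nothing in the labels says that libraries of a group came from separate animals, so the p-values measure only the spread between libraries.

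Toll-like receptors are membrane proteins of innate immunity that bind conserved molecules of microbes or of damaged cells. Receptors at the cell surface (TLR1, TLR2, TLR4, TLR5 and TLR6) bind lipids, lipopolysaccharide or flagellin, and those of endosomes (TLR3, TLR7, TLR8, TLR9 and TLR13) bind nucleic acids. All but TLR3 signal through the adaptor MyD88, TLR3 and internalised TLR4 signal through TRIF, and both routes end at the NF-kB, AP-1 and interferon regulatory transcription factors. In the brain and spinal cord, microglia are the main cells known to carry most of these receptors.

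Library totals were 46.2 to 58.3 M counts (M, mega), and 16740 genes were tested. Levels are in CPM, counts scaled to the same total in every library, after TMM scaling, a correction for library composition whose factors were 0.80 to 0.96 in control EAE, 1.08 to 1.20 in healthy and 0.90 to 1.18 in metformin EAE libraries. The 8 microglia markers used (Tmem119, P2ry12, Cx3cr1, Sall1, Siglech, Gpr34, Olfml3 and Csf1r) were present in every group, with a summed level of 15351 to 17909 CPM in healthy, 3033 to 5348 CPM in control EAE and 6330.4 to 15674 CPM in metformin EAE libraries. Oligodendrocyte markers summed to 2617 to 3833 CPM over the 18 libraries, so RNA of other cells was present as well. Metformin EAE library 22 stood apart from its group, with microglia markers at 15674 CPM and monocyte markers at 12.9 CPM, both inside the healthy ranges. Receptor genes placed it both ways. Its Tlr8 level was inside the healthy range, but Tlr1 at 55.6 CPM was above the healthy 29.5 to 39.3 CPM. Tlr5 at 4.28 CPM lay below the healthy 6.04 to 11.2 CPM and above the other metformin EAE libraries. A library with the wrong label and an animal without disease cannot be told apart for library 22 in these files, and every metformin EAE mean includes it unless stated. Control EAE library 10 had the lowest microglia marker sum, 3033 CPM. Receptor calls that were lost or gained without either library are given with and without it. In bulk RNA, fewer cells of a type and less RNA per cell cannot be told apart.

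Tlr1 and Tlr6 lie beside each other on the minus strand of chromosome 5 (mm10, GENCODE M21 annotation), Tlr1 at chr5:64924679-64933563 and Tlr6 at chr5:64952031-64960097. Their coding sequences were 81.7% identical over aligned bases, against 70.9% for Tlr1 and Tlr2 and 70.0% for Tlr2 and Tlr6. Of all 50-base stretches in the exons of Tlr1, 15.4% also occurred in another gene, as did 12.3% of those of Tlr6, nearly all of them in each other. The pair is shown over a coding stretch of 150 bases, in which capitals mark the single base that differs, because reads from such a stretch can be assigned to either gene and the counting rule is not given in the sources used here.
Tlr1, chr5:64925676-64925825: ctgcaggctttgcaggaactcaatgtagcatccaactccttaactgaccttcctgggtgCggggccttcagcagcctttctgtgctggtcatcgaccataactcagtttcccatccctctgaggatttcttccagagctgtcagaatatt
Tlr6, chr5:64953967-64954116: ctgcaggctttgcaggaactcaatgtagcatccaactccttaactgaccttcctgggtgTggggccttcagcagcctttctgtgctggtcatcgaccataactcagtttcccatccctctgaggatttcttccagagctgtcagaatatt
The values of both genes are therefore uncertain by the reads of such stretches. Tlr7 (chrX:167304929-167330558) and Tlr8 (chrX:167242696-167264329), also neighbours, were 69.2% identical in coding sequence and shared no 50-base stretch. Tlr3 (chr8:45395665-45411080) shares 381 exon bases with the antisense gene Gm45542 on the other strand, and 5.30% of its 50-base stretches. The libraries were made with a stranded kit, but whether counting used the strand is not given in the sources used here. The other members are Tlr2 (chr3:83836272-83841767), Tlr4 (chr4:66827584-66930284), Tlr5 (chr1:182954788-182976044), Tlr9 (chr9:106222598-106226883) and Tlr13 (chrX:106143204-106160493).

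Promoter windows from RefSeq (GRCm38.p6, the assembly of mm10), 250 bases before to 50 from the start, were found for 8 of the 10 genes. Tlr2, Tlr9, Tlr5 and Tlr8 are shown, the first because its level led the family, the others because their levels differed most between groups. Capitals mark matches to 4 motifs searched on both strands: the NF-kB motif, the interferon-stimulated element GAAANNGAAA, the AP-1 motif TGANTCA and the PU.1 motif GAGGAAG.
Tlr2, chr3:83841559-83841858, minus strand: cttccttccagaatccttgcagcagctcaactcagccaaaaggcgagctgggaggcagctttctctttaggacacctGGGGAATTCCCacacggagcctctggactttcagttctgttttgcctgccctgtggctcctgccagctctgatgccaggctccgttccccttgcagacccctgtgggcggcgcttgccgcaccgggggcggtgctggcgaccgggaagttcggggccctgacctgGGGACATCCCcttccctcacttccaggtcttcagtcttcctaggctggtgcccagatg
Tlr9, chr9:106222348-106222647, plus strand: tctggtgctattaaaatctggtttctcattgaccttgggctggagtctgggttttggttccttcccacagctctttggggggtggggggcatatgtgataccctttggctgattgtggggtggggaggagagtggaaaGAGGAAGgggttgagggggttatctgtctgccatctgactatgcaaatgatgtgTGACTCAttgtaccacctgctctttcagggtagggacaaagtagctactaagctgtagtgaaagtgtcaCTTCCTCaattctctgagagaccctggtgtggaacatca
Tlr5, chr1:182954538-182954837, plus strand: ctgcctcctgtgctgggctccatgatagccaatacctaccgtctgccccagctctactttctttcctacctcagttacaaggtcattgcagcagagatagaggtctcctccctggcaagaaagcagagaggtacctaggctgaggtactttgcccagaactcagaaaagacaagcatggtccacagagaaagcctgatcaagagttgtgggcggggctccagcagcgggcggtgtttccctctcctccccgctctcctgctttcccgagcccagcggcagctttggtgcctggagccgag
Tlr8, chrX:167264280-167264579, minus strand: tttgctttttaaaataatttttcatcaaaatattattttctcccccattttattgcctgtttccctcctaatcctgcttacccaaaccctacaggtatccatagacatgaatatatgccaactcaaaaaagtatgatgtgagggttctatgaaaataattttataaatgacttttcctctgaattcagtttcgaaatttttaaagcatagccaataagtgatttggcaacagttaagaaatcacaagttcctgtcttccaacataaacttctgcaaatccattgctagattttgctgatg
The Tlr2 window held overlapping NF-kB matches at -173 to -163 and a further match at -8 to 1, counted from the start. The Tlr9 window held an AP-1 match at -58 to -52 and PU.1 matches at -112 to -106 and, on the other strand, at 11 to 17. The Tlr5 and Tlr8 windows held none of the 4 motifs. Among the others, Tlr13 had a PU.1 match and Tlr3 an NF-kB match. Tlr1 and Tlr6 had 2 windows each. The first held a PU.1 match for Tlr1 and a pair of overlapping interferon-stimulated elements for Tlr6, and the second held no match for either gene. Of 32851 mouse promoter windows of this length, 8.46% held the NF-kB motif, 3.44% the interferon-stimulated element, 7.81% the AP-1 motif and 13.6% the PU.1 motif. A match describes letters in the window and does not show that a factor binds there.

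Levels per kilobase of exon (CPM per kb) set the genes against each other, and Tlr2 led in all 3 groups. In healthy libraries Tlr2 stood at 84.9 ± 14.9 CPM per kb (SD, n = 6), followed by Tlr13 at 60.6 ± 6.67, Tlr9 at 47.7 ± 8.74 and Tlr7 at 46.4 ± 3.59. Neighbours among these 4 overlapped in range. A gap without overlap separated them from Tlr1 at 10.4 ± 0.946, Tlr3 at 7.75 ± 1.43, Tlr4 at 6.65 ± 0.259 and Tlr6 at 5.67 ± 0.867 CPM per kb, whose neighbours overlapped again. Tlr5 at 1.87 ± 0.396 and Tlr8 at 0.00793 ± 0.0112 CPM per kb came last, each below its neighbour without overlap. So the receptors of highest RNA level in healthy libraries were 1 surface receptor and 3 nucleic acid sensors of the endosome.

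In control EAE libraries the order was Tlr2 (135 ± 26.3 CPM per kb, SD, n = 6), Tlr7 (39.8 ± 8.93), Tlr13 (37.0 ± 7.84), Tlr9 (17.6 ± 7.46), Tlr1 (12.3 ± 2.01), Tlr6, Tlr3, Tlr4, Tlr8 and Tlr5. Tlr2 was above Tlr7, Tlr13 above Tlr9, Tlr1 above Tlr6 and Tlr4 above Tlr8 without overlap, and the other neighbours overlapped. Tlr8 (0.736 ± 0.362 CPM per kb) and Tlr5 (0.0587 ± 0.0455) stood in the reverse of their healthy order at the low end of the family, with overlapping ranges. In metformin EAE libraries Tlr2 stood at 171 ± 32.9, Tlr13 at 56.9 ± 9.09, Tlr7 at 48.7 ± 1.71, Tlr9 at 34.7 ± 8.49 and Tlr1 at 17.6 ± 1.46 CPM per kb. There Tlr2 was above Tlr13, Tlr9 above Tlr1, Tlr1 above Tlr3 and Tlr6 above Tlr8 without overlap. As a share of the summed length-adjusted level of the 10 genes, Tlr2 made up 31.1% ± 2.64 in healthy, 53.3% ± 3.86 in control EAE and 48.9% ± 7.47 in metformin EAE libraries, and Tlr9 made up 17.4% ± 1.51, 6.63% ± 2.38 and 9.998% ± 2.72. The sum itself was 272 ± 29.7, 254 ± 47.8 and 349 ± 21.8 CPM per kb in the same order.

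**Figure D1:**
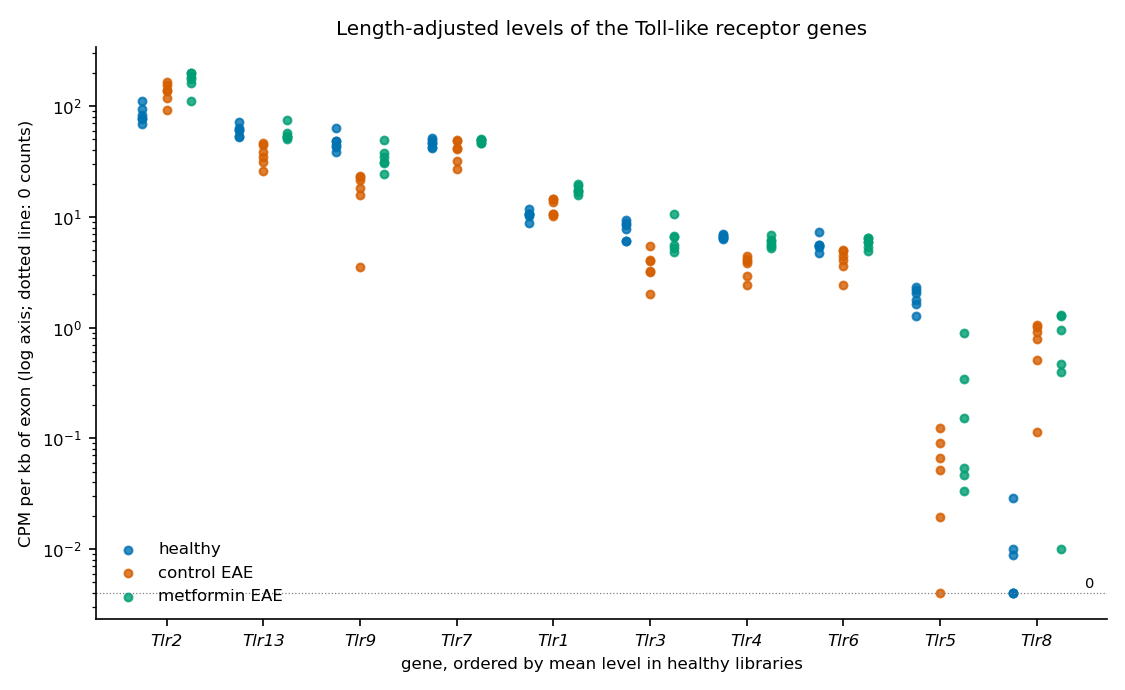
Level of each Toll-like receptor gene in CPM per kilobase of exon on a log axis, 1 point per library (n = 6 per group), genes ordered by their mean in healthy libraries, with a count of 0 drawn on the dotted line. Tlr2, Tlr13, Tlr9 and Tlr7 sit above the rest in healthy libraries, and Tlr5 and Tlr8 change places between healthy and control EAE libraries.

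Control EAE libraries were compared with healthy libraries to ask how the receptor genes differed in disease. Surface receptor Tlr2 and endosomal Tlr8 rose, while Tlr4, Tlr5, Tlr6, Tlr3, Tlr9 and Tlr13 fell, with 32.2-fold for Tlr5 and 85.5-fold for Tlr8 as the widest differences. Tlr1 rose by 1.18-fold under TMM scaling, but lay lower, with no call, when libraries were scaled by their totals alone. Under that scaling Tlr2 still lay higher but was not called (log2 change 0.25, edgeR adjusted p = 0.084). At an adjusted p under 0.05 in edgeR's quasi-likelihood test over all genes, 3 of the 10 genes were called higher and 6 lower, against 31.7% and 30.7% of all genes tested. With library totals alone 1 was called higher and 7 lower, against 15.6% and 51.7% of all genes, since that scaling moved the median log2 change of all genes to -0.42. The groups did not overlap for 1 gene that was higher and 5 that were lower, against 20.1% and 19.3% of all genes. The gene that was higher, Tlr8, could pass the filter only through EAE libraries, so its rise was largely fixed in advance. The median log2 change of the 10 genes was -0.59, against -0.003 over all genes.

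Tlr2, which binds bacterial lipoproteins as a partner of TLR1 or TLR6, lay between 207 and 332 CPM in healthy libraries, with a median of 242. In control EAE libraries it lay between 280.5 and 500.3 CPM, with a median of 417. All but 1 control EAE library, library 10, were above the whole healthy range. The log2 change was 0.67 ± 0.15 (SE, edgeR adjusted p = 0.000735), and with library totals alone it was 0.25 (adjusted p = 0.084).

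The partners of Tlr2 went apart. Tlr1 spanned 29.5 to 39.3 CPM in healthy libraries (median 35.2) and 33.9 to 48.2 CPM in control EAE libraries (median 40.4). The ranges overlapped, and only 3 of the 6 control EAE libraries, 2, 17 and 18, were above the healthy range. The log2 change of 0.24 ± 0.10 (edgeR adjusted p = 0.0469) was -0.18 (adjusted p = 0.157) with library totals alone, and the call was lost in 10 of the 18 fits that left out 1 library, with no filter on low counts and with only these groups in the fit. Tlr6 spanned 17.6 to 27.3 CPM in healthy libraries (median 20.4) and 9.11 to 18.9 CPM in control EAE libraries (median 15.9), a log2 change of -0.47 ± 0.14 (edgeR adjusted p = 0.00793). Control EAE libraries 2 and 17 reached into the healthy range, and the other 4 lay below it. The ratio of Tlr1 to Tlr6 per kilobase was 1.44 to 2.27 in healthy and 2.59 to 4.15 in control EAE libraries, without overlap, so the genes of this neighbouring pair changed unequally.

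Tlr4, the receptor for bacterial lipopolysaccharide, varied little among healthy libraries, at 35.4 to 39.2 CPM (median 36.5). In control EAE libraries it lay at 13.6 to 24.7 CPM (median 21.7). Every control EAE library was below every healthy one, and the log2 change was -0.87 ± 0.12 (edgeR adjusted p = 3.58e-06). Tlr5, the flagellin receptor, was low but present in healthy libraries at 6.04 to 11.2 CPM (376 to 659 counts). It dropped to 0 to 0.591 CPM (0 to 26 counts) in control EAE libraries, with 0 counts in library 10. The fall in log2 was -5.01 ± 0.78 (edgeR adjusted p = 3.23e-05), without overlap.

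Among the endosomal receptors, Tlr9, which senses unmethylated CpG DNA, fell most. It lay at 134 to 222 CPM in healthy libraries (median 161) and at 12.3 to 80.7 CPM in control EAE libraries (median 69.7). Control EAE library 10 was far below the others of its group, with 686 counts against 2253 to 4038. The log2 change was -1.44 ± 0.31 (edgeR adjusted p = 0.000549), and -1.22 (adjusted p = 3.88e-06) without library 10.

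Tlr3, the sensor of long duplex RNA, lay at 31.3 to 49.0 CPM in healthy (median 42.0) and 10.4 to 28.2 CPM in control EAE libraries (median 18.9). Its log2 change was -1.08 ± 0.21 (edgeR adjusted p = 0.000189), without overlap. Control EAE library 10, lowest for Tlr9, was the highest of its group for Tlr3. Tlr13, which in mice senses bacterial ribosomal RNA, lay at 228 to 306 CPM in healthy (median 262) and 113 to 199 CPM in control EAE libraries (median 158), with a log2 change of -0.71 ± 0.13 (edgeR adjusted p = 9.95e-05) and no overlap.

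Tlr7 and Tlr8 are X-linked neighbours of the same subfamily, and Tlr8 was called while Tlr7 was not. Tlr7, a sensor of single-stranded RNA, lay at 172 to 210.3 CPM in healthy (median 189.6) and 109 to 203 CPM in control EAE libraries (median 168). Its log2 change of -0.22 ± 0.12 was not called (edgeR adjusted p = 0.103), and 2 control EAE libraries, 1 and 10, lay well below the rest. Tlr7 was called lower with library totals alone, at a log2 change of -0.65 (adjusted p = 7.93e-05), and it was called in 2 of the 18 fits that left out 1 library, whereas without library 10 the change was -0.13 (adjusted p = 0.23). Tlr8, whose role as an RNA sensor is known from human cells, was near the floor in healthy libraries at 0 to 0.103 CPM (0 to 6 counts, and 0 in 3 libraries). In control EAE libraries it lay at 0.413 to 3.82 CPM (23 to 165 counts, median 3.07 CPM). The groups did not overlap, and the log2 change was 6.42 ± 0.96 (edgeR adjusted p = 1.74e-05), a size that rests on the few counts in healthy libraries. At such healthy counts Tlr8 could pass the filter (minimum count 10) only through EAE libraries, so its rise was largely fixed in advance.

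**Figure D2:**
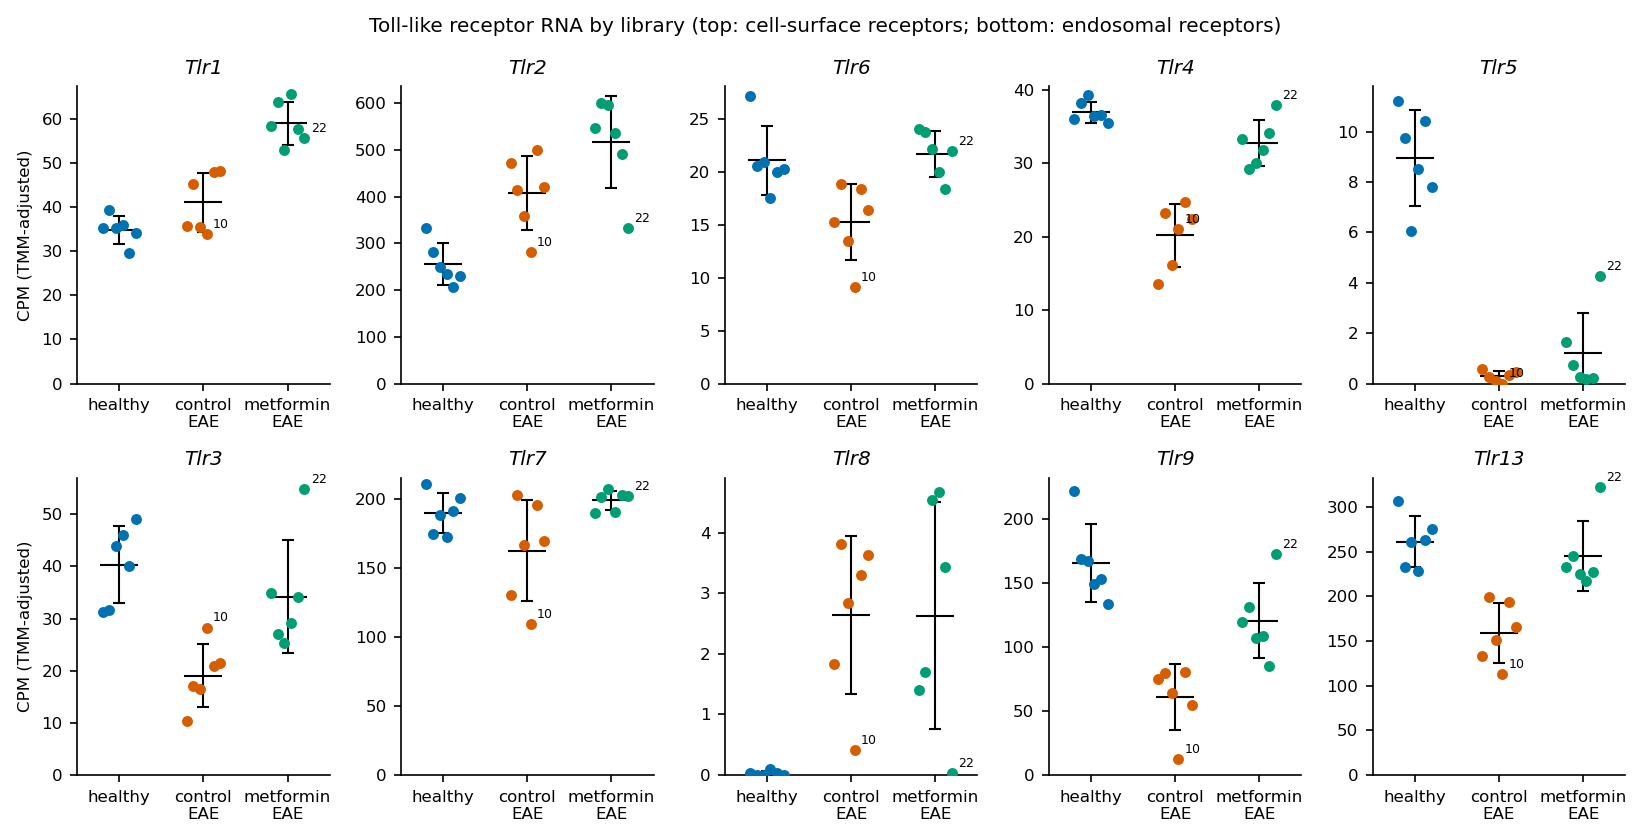
Level of each Toll-like receptor gene in TMM-adjusted CPM, 1 point per library, with the mean (long bar) and SD (error bar) of 6 libraries per group, and with control EAE library 10 and metformin EAE library 22 numbered. Tlr4, Tlr5, Tlr3, Tlr9 and Tlr13 sit lower in every control EAE library than in any healthy one, Tlr8 sits higher, and metformin EAE library 22 lies with the healthy libraries for Tlr8.

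Marker genes of several cell types moved in the same comparison. All 8 microglia markers used fell in control EAE libraries, beside the falls of Tlr4, Tlr5, Tlr6, Tlr3, Tlr9 and Tlr13. Of 10 markers of monocyte-derived cells, 7 were tested and 4 rose, and their summed level went from 6.86 to 14.6 CPM in healthy to 249 to 524 CPM in control EAE libraries. Markers of border macrophages, of which 3 of 4 tested rose, summed to 0.855 to 4.58 CPM in healthy and 52.0 to 106 CPM in control EAE libraries, with Pf4 at 0 in every library. The 8 neutrophil markers summed to at most 0.353 CPM in healthy and 2.88 to 8.53 CPM in control EAE libraries, with Ly6g at 0 in every library. S100a9, Retnlg, Ngp, Camp and Cxcr2 did not pass the filter on low counts. Both tested markers rose. At such healthy levels they could pass the filter only through EAE libraries, so that rise was largely fixed in advance. Of 4 tested T cell markers 3 rose and 1 fell, with a summed level of 5.69 to 7.28 CPM in healthy and 4.18 to 7.24 CPM in control EAE libraries and Trac at 0 in every library. Endothelial markers, of which 2 of 6 tested rose and 3 fell, summed to 38.3 to 52.3 CPM in healthy and 61.9 to 148 CPM in control EAE libraries, with Cldn5 at 0 in every library. The sums of the monocyte-derived, border macrophage and neutrophil lists were higher beside the rises of Tlr2 and Tlr8, while T cell and endothelial markers went both ways. Both tested B cell markers fell, with a sum of 16.997 to 20.3 CPM in healthy and 8.03 to 10.3 CPM in control EAE libraries. Of the tested markers, 4 of 6 fell for oligodendrocytes, 1 of 4 for dendritic cells and 3 of 7 for astrocytes, with 2 astrocyte markers higher. All 8 neuron markers fell, from 369 to 507 CPM to 164 to 239 CPM in sum. The part of these cell types in the receptor values was not tested.

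**Figure D3:**
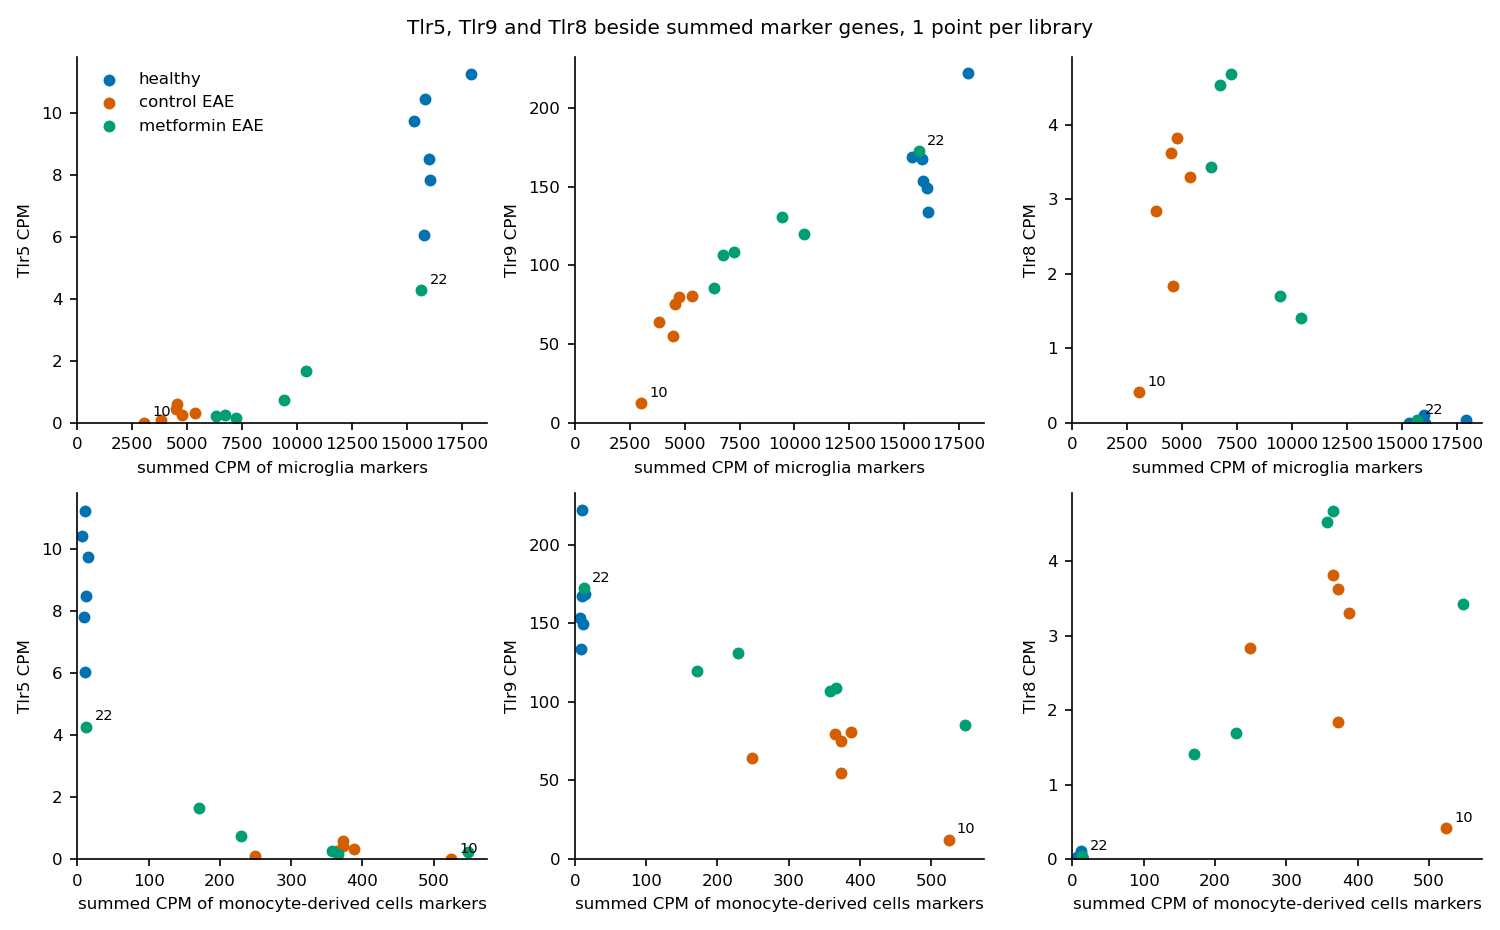
Levels of Tlr5, Tlr9 and Tlr8 in CPM (vertical axes) against the summed CPM of 8 microglia markers (top) and 10 markers of monocyte-derived cells (bottom), 1 point per library. Metformin EAE library 22 lies among the healthy libraries on both marker axes, and control EAE library 10 has the lowest microglia sum, 3033 CPM, with Tlr9 at 12.3 CPM.

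Metformin EAE libraries were compared with control EAE libraries to ask how the drug treatment differed from control treatment within disease. Tlr1, Tlr4, Tlr6, Tlr3, Tlr9, Tlr13 and Tlr5 were higher with metformin, by 1.42-fold for Tlr6 to 1.98-fold for Tlr9 among the well-counted genes. Tlr2, Tlr7 and Tlr8 were not called. Thus 7 of the 10 genes were called higher and 0 lower (edgeR, adjusted p under 0.05), against 12.5% and 12.1% of all genes tested, and at an unadjusted p under 0.05 the counts were 9 and 0, against 19.4% and 18.4% of all genes. DESeq2 likewise called 7 higher and 0 lower. The groups did not overlap for 4 of them (Tlr1, Tlr4, Tlr9 and Tlr13), against 4.9% of all genes. Both comparisons use the same 6 control EAE libraries, so opposite signs in them are not independent of each other. With library totals alone 9 were called higher, against 28.1% of all genes. Without metformin EAE library 22, 6 genes were called higher, against 8.5% of all genes.

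Among the surface receptors, Tlr4 was higher in every metformin EAE library (29.2 to 37.9 CPM, median 32.6) than in any control EAE library (13.6 to 24.7 CPM). Its log2 change was 0.70 ± 0.12 (edgeR adjusted p = 0.00123) and 0.65 without library 22. Tlr1 lay at 52.8 to 65.6 CPM with metformin (median 58.03), above the 33.9 to 48.2 CPM of control EAE, with a log2 change of 0.52 ± 0.10 (edgeR adjusted p = 0.00225). For Tlr1 library 22 was not the extreme of its group.

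Tlr6 lay at 18.4 to 24.1 CPM with metformin (median 22.1), overlapping the top of the control EAE range, and its log2 change was 0.51 ± 0.14 (edgeR adjusted p = 0.0148). The ratio of Tlr1 to Tlr6 per kilobase, 2.66 to 3.66, stayed within the control EAE range. Tlr2 lay at 332 to 600.0 CPM with metformin (median 541), against 280.5 to 500.3 CPM. Library 22 was the lowest of the metformin group, and the log2 change of 0.34 ± 0.15 was not called (edgeR adjusted p = 0.102), whereas without library 22 it was 0.44 (adjusted p = 0.0265).

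Tlr5 depended on library 22. It lay at 0.161 to 1.65 CPM (8 to 88 counts) in 5 metformin EAE libraries and at 4.28 CPM (236 counts) in library 22, against 0 to 0.591 CPM in control EAE libraries. Of the 5 others, only libraries 5 and 6 were above the control EAE range. The log2 change was 2.15 ± 0.76 (edgeR adjusted p = 0.0476) with library 22, and 1.15 (adjusted p = 0.216) without it. It was 1.86 (adjusted p = 0.0826) without control EAE library 10.

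Among the endosomal receptors, Tlr9 lay at 85.5 to 172 CPM with metformin (median 114), every library above the control EAE maximum of 80.7 CPM. Its log2 change was 0.98 ± 0.30 (edgeR adjusted p = 0.0254). It was 0.85 (adjusted p = 0.0617) without library 22, the highest of its group, 0.77 (adjusted p = 0.00341) without control EAE library 10, and 0.64 (adjusted p = 0.00333) without both.

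Tlr13 lay at 217 to 322 CPM with metformin (median 229.7), above the control EAE range of 113 to 199 CPM, with a log2 change of 0.62 ± 0.13 (edgeR adjusted p = 0.00323). Tlr3 lay at 25.3 to 54.8 CPM (median 31.6), overlapping only the highest control EAE library, with a log2 change of 0.84 ± 0.21 (edgeR adjusted p = 0.00766). Library 22 was the highest metformin EAE library for both genes, and both calls held without it, at log2 changes of 0.53 for Tlr13 and 0.66 for Tlr3.

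Tlr7 varied less within the metformin group than in the other groups, at 189.9 to 207 CPM, against 109 to 203 CPM in control EAE libraries. Its log2 change of 0.29 ± 0.12 was not called (edgeR adjusted p = 0.0733), but was called with library totals alone (0.52, adjusted p = 0.00336) and in 2 of the 18 fits that left out 1 library. Tlr8 showed no called difference, with a log2 change of -0.00 ± 0.64 (edgeR adjusted p = 0.997), so a modest change in either direction was not detectable. It lay at 1.41 to 4.68 CPM (75 to 232 counts) in 5 metformin EAE libraries and at 0.0362 CPM (2 counts) in library 22, which thus resembled healthy libraries for Tlr8.

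**Figure D4:**
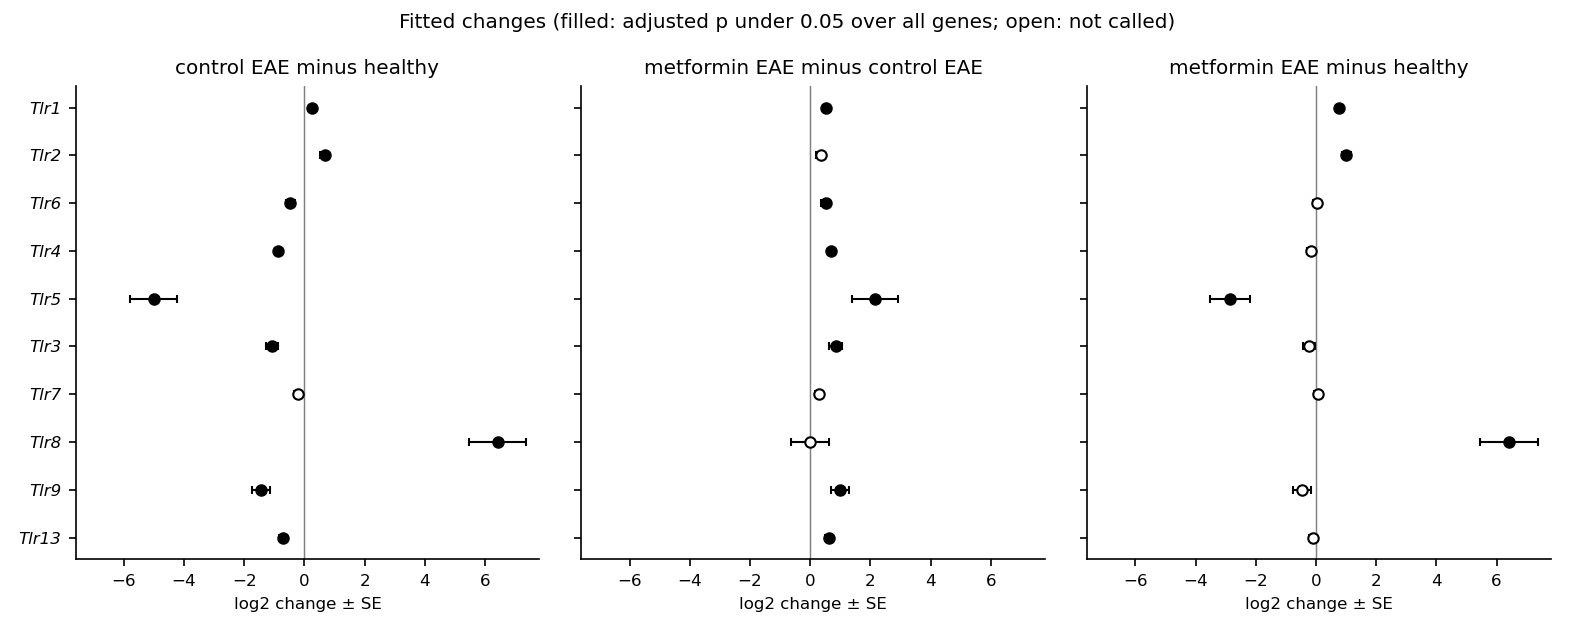
Fitted log2 change (point) and SE (bar) of each Toll-like receptor gene in 3 comparisons, filled where the adjusted p over all genes was under 0.05. In control EAE minus healthy, 3 genes are filled to the right and 6 to the left, the rise of Tlr1 being reversed under library totals alone. In metformin EAE minus control EAE, 7 are filled to the right.

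Marker genes moved in this comparison too. The 8 microglia markers used were all higher with metformin, beside the higher levels of Tlr1, Tlr4, Tlr6, Tlr3, Tlr9 and Tlr13. Of the 7 tested markers of monocyte-derived cells 1 was lower and none higher, with a summed level of 12.9 to 547 CPM. Border macrophage markers summed to 3.57 to 45.2 CPM with metformin, all libraries below the 52.0 to 106 CPM of control EAE. Of their 4 tested markers 1 was lower, and neither tested neutrophil marker was called. Both tested B cell markers were higher, with a sum of 10.3 to 20.7 CPM. Higher calls without lower ones were also made for 2 of 8 neuron, 2 of 6 endothelial, 1 of 4 T cell and 1 of 4 dendritic cell markers. Of 7 astrocyte markers 2 were higher and 1 lower, and no oligodendrocyte marker of 6 was called. Their part in the receptor values was not tested.

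Metformin EAE libraries were last compared with healthy libraries, which asks how far the treated libraries differed from health. Tlr1, Tlr2 and Tlr8 were higher and Tlr5 was lower, and the other 6 genes were not called. That is 3 of 10 higher and 1 of 10 lower, against 20.3% and 16.3% of all genes tested. Tlr1 was above healthy in every library, as were 6.82% of all genes, with a log2 change of 0.76 ± 0.10 (edgeR adjusted p = 1.82e-05). Tlr2 was 2.02-fold higher, a log2 change of 1.02 ± 0.15 (edgeR adjusted p = 5.51e-05), with overlap at library 22. Tlr8 had a log2 change of 6.41 ± 0.96 (edgeR adjusted p = 7.49e-05), again with library 22 inside the healthy range, and it did not pass the filter on low counts when only these groups were fitted. Here too Tlr8 could pass the filter only through EAE libraries, so this rise was largely fixed in advance. Tlr5 was lower in every metformin EAE library, as were 6.12% of all genes, by -2.86 ± 0.67 in log2 (edgeR adjusted p = 0.00324), and by -3.86 without library 22.

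For the 6 genes that were not called, log2 changes ran from -0.46 ± 0.30 for Tlr9 (edgeR adjusted p = 0.243) to 0.07 ± 0.12 for Tlr7 (adjusted p = 0.668). A missed threshold does not show that they were at healthy levels. Without control EAE library 10, which enters the shared estimate of spread, Tlr9 was called lower than healthy, at a log2 change of -0.46 (adjusted p = 0.0185). Without library 22 the change of Tlr3 went from -0.24 to -0.42 (adjusted p = 0.0676) and that of Tlr13 from -0.09 to -0.19 (adjusted p = 0.221). Without libraries 10 and 22 together Tlr3 was called lower at -0.42 (adjusted p = 0.034) and Tlr9 at -0.59 (adjusted p = 0.000757). With only these groups in the fit Tlr4 was called lower at -0.19 (adjusted p = 0.0432) and Tlr9 at -0.47 (adjusted p = 0.0233).

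The other mouse receptors, Tlr11 and Tlr12, which in mice bind profilin of protozoan parasites, were low throughout. Tlr12 lay at 1.84 to 3.92 CPM in healthy, 0.287 to 1.46 CPM in control EAE and 2.41 to 3.38 CPM in metformin EAE libraries. It fell in control EAE (log2 change -1.23 ± 0.27, edgeR adjusted p = 0.000653) and was higher with metformin (1.28 ± 0.27, adjusted p = 0.00345), each without overlap. Tlr11 lay at 0.38 to 1.07, 0.395 to 1.44 and 1.496 to 3.12 CPM in the same order. It was not called in control EAE against healthy (adjusted p = 0.39) and was higher with metformin than in control EAE (log2 change 1.15 ± 0.31, edgeR adjusted p = 0.0116), without overlap.

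The genes around the receptors were read from 7 lists by role. Their counts in control EAE are read against 31.7% higher and 30.7% lower of all genes, and those with metformin against 12.5% and 12.1%. Shares of all genes with library totals alone were 15.6% and 51.7% in control EAE and 28.1% and 3.68% with metformin. With metformin they were 8.5% and 9.84% without library 22, and 10.3% and 10.8% without control EAE library 10 and metformin EAE library 22 together. Of the 4 genes that hand ligands to surface receptors, 3 rose and 0 fell in control EAE, or 2 and 1 with library totals alone. Cd36, a scavenger receptor that assists TLR2, went from 0.666 ± 0.233 to 16.6 ± 7.79 CPM (SD, n = 6), and Lbp, which carries lipopolysaccharide, from 0.265 ± 0.0899 to 5.14 ± 2.63 CPM. Ly96, which encodes MD-2, the obligate partner of TLR4, rose by 0.74 ± 0.18 in log2 (edgeR adjusted p = 0.0015), while Tlr4 fell. Ly96 was not called with library totals alone (0.31, adjusted p = 0.11). Cd14, which passes lipopolysaccharide to MD-2, stood at 441 ± 28.0 CPM in healthy and 402 ± 97.6 CPM in control EAE libraries and was not called, except with library totals alone (-0.56, adjusted p = 0.00156). With metformin Lbp was lower than in control EAE, at 1.95 ± 1.20 CPM (log2 change -1.40 ± 0.45, edgeR adjusted p = 0.0282), and the other 3 were not called. Cd36 was called higher without control EAE library 10 and metformin EAE library 22 together (0.92, adjusted p = 0.0341), and Cd14 with library totals alone (0.43, adjusted p = 0.025).

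Of 9 genes for receptor folding and transport, 2 rose and 3 fell in control EAE, or 2 and 5 with library totals alone. Unc93b1, the chaperone that brings endosomal receptors out of the endoplasmic reticulum, was named after its values were seen and fell by 0.24 ± 0.08 in log2, from 819 ± 41.3 to 696 ± 52.2 CPM (edgeR adjusted p = 0.015). Slc15a3 rose by 0.85 ± 0.14 in log2, while its relative Slc15a4, both of them endolysosomal peptide and histidine transporters, fell by 0.67 ± 0.15. Rab7b, a GTPase of late endosomes that promotes degradation of TLR4 and TLR9 in mouse macrophages, went from 13.04 ± 4.92 to 349.6 ± 64.3 CPM (edgeR adjusted p = 1.4e-06). With metformin only Tmed7, a cargo receptor in the export of TLR4, was called, higher by 0.40 ± 0.12 in log2 (edgeR adjusted p = 0.0224). Rab7b stood at 164 ± 86.8 CPM without a call (edgeR adjusted p = 0.0917), but was called lower without library 22 (-0.84, adjusted p = 0.0118). With metformin this list had 3 higher and 0 lower with library totals alone, 1 and 1 without library 22, and 1 and 2 without control EAE library 10 and metformin EAE library 22 together.

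Of the 6 adaptors, 0 rose and 2 fell in control EAE, and 2 were higher and 0 lower with metformin. With library totals alone all 6 fell in control EAE, where 51.7% of all genes were called lower, and 3 were higher with metformin. Without both control EAE library 10 and metformin EAE library 22, 1 was higher with metformin, and without metformin EAE library 22 none was called with metformin (3 were higher at an unadjusted p under 0.05). DESeq2 gave the same counts as edgeR. Myd88, the adaptor of all members but TLR3, stood at 106 ± 5.13 CPM in healthy and 98.8 ± 15.7 CPM in control EAE libraries, with no call (edgeR adjusted p = 0.324). It was called lower with library totals alone (-0.52, adjusted p = 0.000818) and without control EAE library 10 (-0.19, adjusted p = 0.0378). Sarm1, an NAD-cleaving TIR protein, fell by 1.08 ± 0.20 in log2 in control EAE (edgeR adjusted p = 0.000116) and was higher by 0.57 ± 0.20 with metformin (adjusted p = 0.0438), or 0.41 (adjusted p = 0.131) without library 22 and 0.45 (adjusted p = 0.0765) without control EAE library 10. Pik3ap1, which encodes the adaptor BCAP, fell by 0.88 ± 0.26 (edgeR adjusted p = 0.00617) and was higher by 0.73 ± 0.26 with metformin (adjusted p = 0.0446), or 0.66 (adjusted p = 0.0937) without library 22.

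Of 16 kinases and ubiquitin ligases, 4 rose and 6 fell in control EAE, and 4 were higher and 2 lower with metformin. With library totals alone 2 rose and 11 fell in control EAE and 9 were higher with metformin, and without library 22 the metformin counts were 2 and 2. Ikbke, a kinase upstream of interferon regulatory factors, went from 0.754 ± 0.387 to 20.2 ± 4.08 CPM (edgeR adjusted p = 1.65e-06). Tab2 and Tab1, both partners of the kinase TAK1, went opposite ways. Tab2 fell from 212 ± 27.1 to 81.0 ± 21.9 CPM in control EAE and stood at 137 ± 42.9 CPM with metformin, whereas Tab1 rose from 22.4 ± 3.60 to 35.8 ± 1.80 CPM and stood at 27.6 ± 2.86 CPM with metformin, each called in both comparisons. The metformin call of Tab1 was lost with library totals alone (-0.16, adjusted p = 0.211). Traf3, a ubiquitin ligase of the TRIF route, was lower in control EAE than in healthy libraries (log2 change -0.33, edgeR adjusted p = 0.0169). It was higher with metformin by 0.45 ± 0.12 in log2 (edgeR adjusted p = 0.009).

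Of 10 transcription factors, 4 rose and 3 fell in control EAE, and 1 was higher and 1 lower with metformin. With library totals alone 2 rose and 6 fell in control EAE and 4 were higher with metformin. Nfkb1, an NF-kB subunit, fell from 121 ± 9.30 to 72.4 ± 10.9 CPM in control EAE and stood at 98.3 ± 13.5 CPM with metformin, called in both comparisons. Irf1 rose by 1.64 ± 0.24 and Irf7 by 1.39 ± 0.25 in log2 in control EAE (edgeR adjusted p = 1.05e-05 and 8.4e-05). Jun, a subunit of AP-1, had a log2 change of -0.34 ± 0.12 with metformin (edgeR adjusted p = 0.0415), and the call was lost without library 22 (-0.27, adjusted p = 0.0975) and with library totals alone (-0.12, adjusted p = 0.335). The list counts with metformin were 1 higher and 0 lower without library 22, and 1 and 2 without control EAE library 10 and metformin EAE library 22 together.

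Of 14 inhibitors and decoys, 6 rose and 3 fell in control EAE, and 3 were higher and 2 lower with metformin. With library totals alone 3 rose and 5 fell in control EAE and 6 were higher with metformin, and without library 22 the metformin counts were 2 and 1. Nfkbia, which encodes the NF-kB inhibitor IkB alpha, rose from 73.2 ± 12.8 to 169 ± 42.7 CPM in control EAE (edgeR adjusted p = 6.67e-07) and was lower with metformin at 112 ± 9.97 CPM (adjusted p = 0.00514). That call was lost with library totals alone (-0.38, adjusted p = 0.0578). Il1rl1, the interleukin-33 receptor, fell by 1.79 ± 0.25 in log2 in control EAE. In the reported fit it was higher with metformin than in control EAE (log2 change 0.82, edgeR adjusted p = 0.0202). Cd180, a decoy related to TLR4, was higher with metformin than in control EAE, at 250.3 ± 34.0 against 166 ± 42.9 CPM (edgeR adjusted p = 0.0136).

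Of 15 cytokines, chemokines and enzymes known to be induced through these receptors, 9 were tested, and 8 rose and 1 fell in control EAE. Acod1, which makes itaconate, went from 0.185 ± 0.158 to 45.6 ± 25.4 CPM, Ccl5 from 2.51 ± 1.06 to 126 ± 98.6 CPM and Cxcl10 from 1.71 ± 1.11 to 26.1 ± 22.9 CPM. Il6 fell from 0.868 ± 0.327 to 0.0437 ± 0.0573 CPM, the opposite of the rest. Acod1 in healthy and Il6 in control EAE libraries lay near the floor. Each passed the filter mainly through groups where it was high, so its direction was partly fixed in advance. How far the filter shaped the counts and median of this list was not tested. Between metformin EAE and control EAE libraries 0 of the 9 were called by edgeR, 1 at an unadjusted p under 0.05, and 1 by DESeq2. Without control EAE library 10 and metformin EAE library 22 together, 8 were tested and 3 were higher, against 10.3% of all genes, and without library 10 alone 4 of 9 were higher, against 12.9%. Ccl4 stood at 29.7 ± 13.5 CPM with metformin against 45.9 ± 12.5 CPM (edgeR adjusted p = 0.241). Il12b, Il10, Ifnb1, Cxcl1 and Cxcl2 did not pass the filter, and Tnf was listed at 0 in every library. Beside these rises stand those of the monocyte-derived and border macrophage markers given above, and of the tested neutrophil markers with the limit given there. Adaptors, transport genes, kinases and transcription factors had median log2 changes between -0.10 and 0.08, near the -0.003 of all genes, and the induced genes had a median of 3.93.

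**Figure D5:**
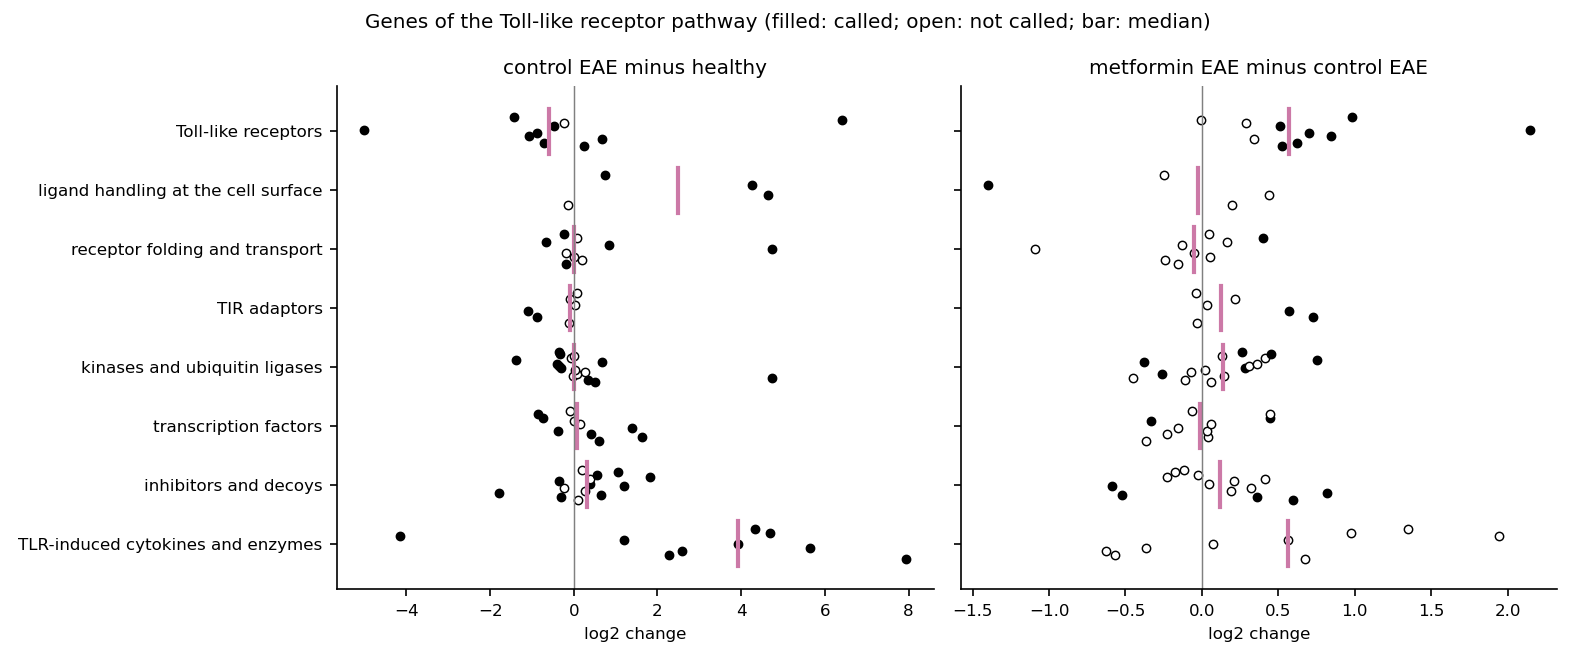
Log2 change of every tested gene of the receptor family and of 7 lists of pathway genes by role, in control EAE minus healthy (left) and metformin EAE minus control EAE (right), filled where the adjusted p was under 0.05, with the median of each list as a bar. The receptors have a median of -0.59 on the left and 0.57 on the right, and the induced cytokines and enzymes a median of 3.93 on the left with no filled point on the right.

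To describe which genes followed the members across libraries, each member was set against 9427 named genes of at least 5 CPM by the root mean square difference of their centred log2 levels over the 18 libraries, a measure in which all points share the same libraries and depth. The closest gene was Brip1os for Tlr7 (0.0966), Pdpk1 for Tlr6 (0.101), Pros1 for Tlr4 (0.114), Zfp407 for Tlr13 (0.123) and Nr3c1, the glucocorticoid receptor, for Tlr3 (0.135). Tbc1d8 was closest to Tlr1 (0.156), Snx29 to Tlr9 (0.179) and Vps13c to Tlr2 (0.203). For the low-count members the smallest differences were larger, with Gp9 for Tlr5 at 0.869 and Colec12 for Tlr8 at 0.909. These members also varied more, with a root mean square of their own centred levels of 2.67 and 3.07. For the other members it ran from 0.238 for Tlr7 to 0.910 for Tlr9. The differences therefore do not rank the members by how closely they were followed. Gp9 itself had a log2 change of -6.14 in control EAE against healthy, and Colec12, a scavenger receptor, 5.42.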

How the data were processed

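Bulk RNA sequencing counts per gene were deposited by the authors as 1 table of whole numbers for 18 libraries and 39017 Ensembl genes. Per the labels' protocols, RNA was isolated with a Zymo Research column kit and libraries were made with the KAPA stranded kit after mRNA enrichment. Per the submitters' processing notes, bcl2fastq 2.17, FastQC and Trimmomatic were used and the build was mm10. Aligner, counter and annotation were not given in the sources used here. Of values from 5 to 99, 69.3% were even, so a fragment may have been counted more than 1 time. Reads were PCR-amplified and carry no molecular identifiers, so counts are not independent molecules. In all libraries 14191 genes stood at 0.

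Symbols, positions and exon lengths came from GENCODE M21, and 1324 genes had no symbol. Genes were filtered with filterByExpr (minimum count 10, total 15), which kept 16740. All 18 libraries entered 1 edgeR 4.0.16 fit (R 4.3.3, limma 3.58.1, TMM, robust quasi-likelihood F test, no covariate, Benjamini-Hochberg adjusted p under 0.05 over all genes). Each SE is the absolute log2 change over the root of its F value. On simulated counts with planted changes the same code was checked. Alternatives were DESeq2 1.42.0, its size factors in edgeR, library totals, no filter, only the groups compared, a block by runs of label numbers, left-out libraries, halved counts and, chosen after seeing the data, leaving out control EAE library 10 and metformin EAE library 22 together. Named genes were drawn from the members, Tlr11, Tlr12, the 3 genes of smallest p per list in each of the first 2 comparisons, and the nearest gene of each member. Unc93b1 was added to that set after its values were seen. Genes of that set not described above are Rel and Cyld (called lower in control EAE), Tnip1 and Ptgs2 (called higher), and Ticam2 and Cnpy4 (not called). With metformin only Cyld of these was called, higher by 0.36 in log2 (edgeR adjusted p = 0.00885). The members and lists were chosen with earlier results of these data known. For microglia, 1 marker of the list is not reported here and is left out of its counts and sums. Python 3.11.15 with pandas 2.3.3, numpy 2.4.6, matplotlib 3.10.9 and biopython 1.88 was used for tables, sequences and figures.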

Additional observations from a re-analysis of the deposited data

Results flagged for a closer look

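The level of each of the 12 Toll-like receptor genes was examined in each group for a library far from the other 5 (Dixon's test, critical value 0.625), 36 tests in all, of which chance flags about 1 in 20. There were 6 such values, from 4 libraries. Metformin EAE library 22 was high for Tlr3 at 54.8 CPM (others 25.3 to 34.9), for Tlr5 at 4.28 CPM (others 0.161 to 1.65) and for Tlr13 at 322 CPM (others 217 to 245). Control EAE library 10 was low for Tlr12 at 0.287 CPM (others 1.29 to 1.46). Healthy library 3 was high for Tlr6 at 27.3 CPM (others 17.6 to 20.96). Healthy library 12 was high for Tlr8 at 0.103 CPM (others 0 to 0.0357), a difference of a few counts.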

How the results depend on the processing

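Called counts of the 10 genes are given with their range over the alternatives. In control EAE against healthy, 3 were called higher, and 1, Tlr8, with library totals alone. There Tlr1 lay lower at a log2 change of -0.18 (edgeR adjusted p = 0.157), and Tlr2 lost its call at 0.25 (adjusted p = 0.084). That scaling's shift of the median of all genes by -0.42 bears on both. Leaving out 1 library at a time gave 2 to 3 higher and 6 to 7 lower in this comparison, 6 to 7 higher and 0 lower in metformin EAE against control EAE, and 3 higher and 1 to 2 lower in metformin EAE against healthy. In metformin EAE against healthy, the count called lower, 1 in the reported fit, was 3 with only the 2 groups compared, 3 without control EAE library 10 and metformin EAE library 22 together, and 2 without control EAE library 10. The cause of these changes was not tested. Apart from Tlr1, no called change of a member changed sign in any setting run. Tlr5 lost its metformin call in 14 of 18 left-out libraries (adjusted p up to 0.216), and with only the groups compared or no filter Tlr5 and Tlr9 lost theirs, leaving 5 called. Without healthy libraries 3 and 4, Tlr6 was at an adjusted p of 0.0505 in control EAE. No paired analysis was possible because the groups share no replicate numbers, and the block by runs of label numbers, which the labels do not call a batch, ended only the control EAE call of Tlr1 (0.23, adjusted p = 0.0524). At the depth of 46.2 to 58.3 M (mega) counts, the few counts of Tlr8 in healthy and Tlr5 in control EAE libraries limit the size of their fold changes.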
